A study of Mus musculus with 7 samples.

Results

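Untreated ileum was compared with untreated colon of mice, using 4 of the 7 one-colour Affymetrix arrays of the series and every gene that a probe set names on its own. The 4 arrays were those the labels give as control: 1 ileum and 1 colon array from wild-type (WT) mice, and 1 ileum and 1 colon array from Atg4b knock-out (KO) mice, which lack a protease of the autophagy pathway. All mice were 3 months old and on a mixed C57Bl6/129Sv background, and they had received no dextran sulfate sodium (DSS), the compound used to injure the colon in the rest of the study. The 3 remaining arrays, 2 KO and 1 WT colon after 7 days of DSS and 3 days of water, entered the main fit only to estimate the spread. In fits with 1 control array left out they also help set the genotype term. The differences quoted from those fits are therefore not of control arrays alone. Each difference is the mean of the WT and the KO ileum minus colon values in log2 units, so positive values are higher in ileum and negative values higher in colon, and ± gives the standard error of the fit. A gene is called when its adjusted p in limma is under 0.05. Whether ileum and colon of a genotype came from 1 animal, and whether the arrays are of different animals, is not stated in the labels. The p-values therefore cover variation among these 7 arrays, which may be technical.

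The ileum is the last stretch of the small intestine. Its villi digest and absorb what the upper gut has left, it reclaims bile acids and vitamin B12 for the body, and its crypts carry Paneth cells, which secrete antimicrobial proteins. The colon has no villi and few if any Paneth cells. It recovers water and salt, exchanges chloride for bicarbonate, takes up the short-chain fatty acids made by its dense microbial community and keeps that community behind a thick mucus layer.

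The arrays followed their tissue and genotype labels. The 5 ileal enterocyte markers read 11.28 to 13.78 on the ileum arrays and 4.67 to 8.42 on the colon arrays, on the log2 intensity scale used throughout. The 5 colonocyte markers averaged 8.62 and 7.70 in WT and KO ileum and 12.82 and 12.74 in colon. Their ranges overlapped, at 4.95 to 12.36 in ileum and 11.83 to 13.60 in colon. Atg4b read 7.72 in WT and 5.38 in KO ileum, and 7.35 in WT and 5.45 in KO colon. The labelled sex was not borne out for 2 of these arrays. WT ileum and WT colon are labelled female and both KO arrays male, but Xist, the RNA of the inactive X chromosome, read 5.19 to 5.52 and the Y-linked Eif2s3y 9.39 to 9.77 on all 4, the male pattern, while the 3 DSS arrays had the female one. Ileum and colon are therefore compared within 1 measured sex. Of markers of other tissue, the smooth muscle markers averaged 11.56 and 11.28 in WT and KO ileum and 12.25 and 12.15 in colon, and the adipocyte markers 9.74 and 9.46 in ileum against 8.53 in WT and 6.80 in KO colon. Ttr, a hormone carrier made in quantity by liver, read 7.13 and 7.54 in ileum and 10.36 and 10.54 in colon, and Alb, the main liver protein, 5.73 and 5.66 against 5.97 and 6.69. The 3 pancreatic acinar markers Cpa1, Cela2a and Ctrb1 read 5.88 to 7.04, and the 4 squamous epithelial markers 5.71 to 6.85, on all 4 arrays, below the median of all gene values (7.33). Each array is made from whole tissue, so a lower value can mean fewer cells of a type or less RNA per cell, and these cannot be told apart. The part of muscle, fat and other tissue in the results below was not tested.

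Of 19938 genes, 1184 were called higher in ileum (5.94%) and 642 higher in colon (3.22%). Differences of over 16-fold were found in 58 of the ileum and 26 of the colon genes, and differences of over 64-fold in 13 and 2. The median size of the difference was 0.17 over all genes and 1.03 over called genes. All 1826 called genes had the same sign in WT and KO, as did 64.4% of all genes. A gap between the genotypes adds to the spread that the calls use, so this agreement is largely set by the calling. The 3 DSS colon arrays, which the contrast does not use, lay on the colon side of both ileum arrays together with the control colons for 967 of the ileum and 499 of the colon genes. Over all genes this held for 23.9%. Quantile normalization split the calls differently, with 1074 higher in ileum and 928 in colon (53.6% in ileum, against 64.8% as deposited). Without the WT ileum, the KO ileum, the WT colon or the KO colon, 719, 433, 576 and 384 genes were called in ileum and 284, 276, 236 and 276 in colon.

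**Figure D1:**
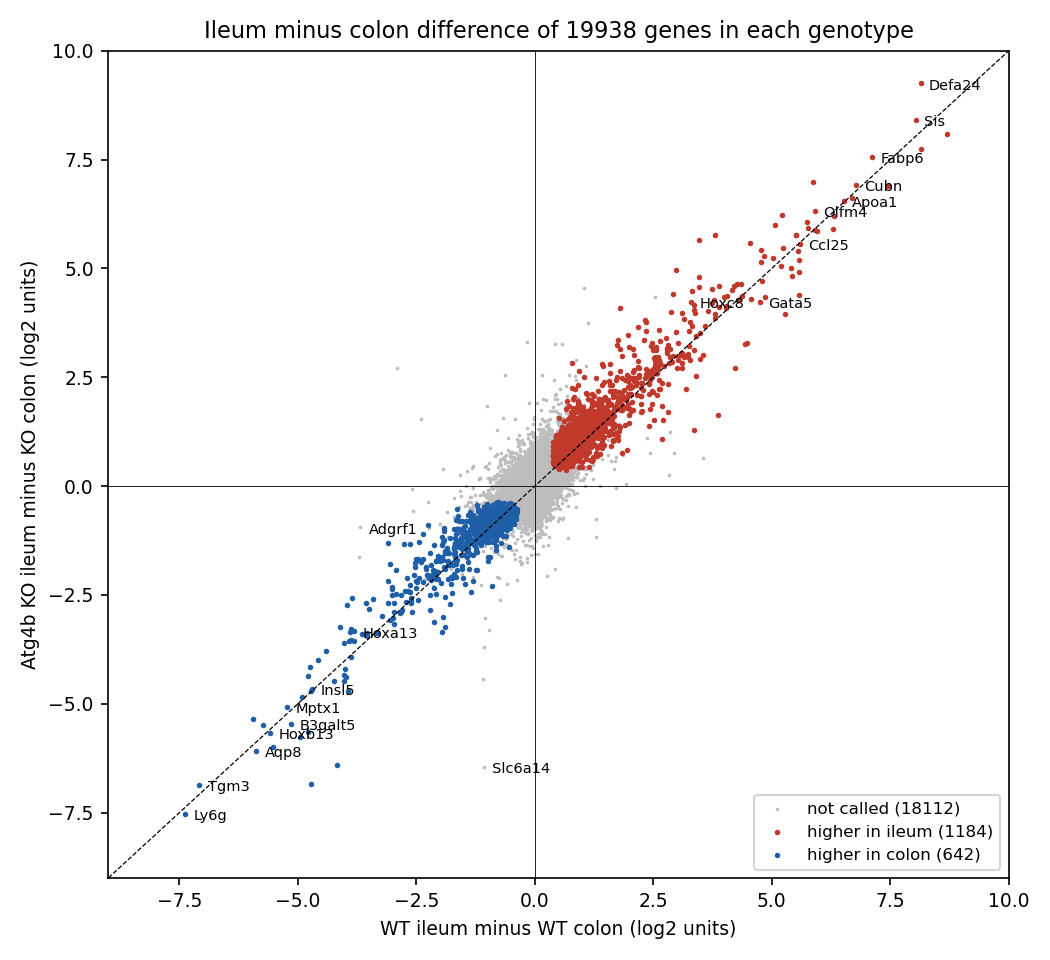
Ileum minus colon difference in log2 units in WT (x axis) and in Atg4b KO (y axis) for 19938 genes, 1 array per tissue and genotype. Called genes are red (1184 higher in ileum) or blue (642 higher in colon), the dashed line marks equal differences, and the labelled Slc6a14 lies far from it, with -1.08 in WT and -6.45 in KO.

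The 20 genes with the largest difference in favour of ileum were mostly products of absorptive and Paneth cells. Of Paneth cell products and lectins they held Defa24, Defa39, Reg3b, Reg3g and Lyz1, of brush border enzymes Sis and Enpep, of carriers and receptors Slc6a19, Slc10a2, Slc13a1, Slc51a, Npc1l1 and Cubn, and of lipid binding proteins Fabp6 and Apoa1. The others were Lgals2, Malrd1, Myrfl, Olfm4 and Vnn1. For 13 of them both control colon arrays read below the lower quartile of that array (5.77 in WT, 5.87 in KO colon). Their differences may be too small and are not ranked here. Of these 20, 18 were called without each of the 4 control arrays in turn, the exceptions being Reg3b and Reg3g. Vnn1, a pantetheinase that releases cysteamine, read 11.10 and 11.73 in WT and KO ileum and 5.87 and 5.50 in colon. Lgals2, a galactose-binding lectin, read 12.71 and 12.76 in ileum and 6.97 and 6.70 in colon. Malrd1, a membrane protein known to raise output of the ileal hormone Fgf15, averaged 11.58 in ileum and 4.92 in colon. No colon array came within 4 log2 units of an ileum array in any of these 3 genes.

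Digestive enzymes of the brush border were higher in ileum, none in colon. Of 26 measured members of this list 16 were called (61.5% against the 5.94% of all genes), and the list's median difference was 1.28 against -0.02 over all genes. Sucrase-isomaltase, which splits sucrose and starch fragments (Sis), read 12.71 in WT and 13.23 in KO ileum and 4.67 and 4.82 in colon, a difference of 8.22 ± 0.14, or 299-fold. The peptidases followed: the glutamyl aminopeptidase Enpep at 5.65 ± 0.45, the dipeptidase Naaladl1 at 5.35 ± 0.14, the alanyl aminopeptidase Anpep at 5.21 ± 0.24 and the aminopeptidase P gene Xpnpep2 at 4.56 ± 0.53. Trehalase, which splits the fungal and insect sugar trehalose (Treh), stood at 3.10 ± 0.24. The intestinal alkaline phosphatase gene Alpi (5.47 ± 0.78) lost its call with any one control array left out, at differences from 5.12 to 5.83. Its difference was 5.55 in WT and 5.40 in KO. The 2 KO and 1 WT DSS colon arrays, which enter the spread, read 8.83, 6.21 and 6.17 for Alpi. Mme (neprilysin, 4.78 ± 0.56) lost its call without the KO colon. In all, 12 of the 16 were called without each of the 4 arrays. Members that did not pass included Mep1a, Asah2 and Plb1.

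Carriers for amino acids showed the same direction. In the list of sugar, peptide and amino acid carriers 16 of 24 were called in ileum (66.7%) and none in colon, with a median of 1.39. The neutral amino acid carrier of the brush border, Slc6a19, read 11.89 and 11.94 in WT and KO ileum and 5.58 and 5.74 in colon (6.25 ± 0.12). Cystine and dibasic amino acids enter through a separate carrier made of a pair of proteins: the light chain Slc7a9 read 11.40 and 11.43 against 6.38 and 6.20 (5.12 ± 0.26), and the heavy chain Slc3a1 11.89 and 11.56 against 6.32 and 6.63 (5.25 ± 0.88). Slc3a1 was not called with any one control array left out (4.48 to 6.02). The proline carrier Slc6a20a (3.52 ± 0.29), the amino acid carrier Slc7a15 (3.49 ± 0.15) and the basolateral carriers Slc43a2 (2.95 ± 0.18) and Slc7a7 (2.13 ± 0.19) were called as well. So was the aromatic amino acid carrier Slc16a10 (1.99 ± 0.10). The fructose carrier Slc2a5 stood at 1.89 ± 0.18, while the facilitated glucose carrier Slc2a1 of the same family was higher in colon at -1.77 ± 0.12. The amino acid carrier Slc6a14 was high in colon (12.41 WT, 12.13 KO) and in WT ileum (11.32) but at 5.67 in KO ileum, and was not called (-3.77 ± 1.30, adjusted p = 0.151 in limma). Of the 16 called carriers 9 were called without each control array, and between 9 and 16 in any one of these settings.

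Genes for fat and sterol absorption gave the list with the highest share of calls, 20 of 26 in ileum (76.9%) and none in colon, with a median of 2.39. Apoa1, the main protein of high-density lipoprotein, read 13.57 and 13.78 in ileum and 7.05 and 7.22 in colon (6.54 ± 0.13). Npc1l1, the carrier that takes up cholesterol, read 12.59 and 12.64 in ileum and 6.64 and 6.78 in colon (5.91 ± 0.11). Mogat2, which rebuilds triglyceride from absorbed monoglyceride, stood at 5.06 ± 0.18, and Mttp, which loads triglyceride onto apolipoprotein B, at 4.95 ± 0.13. In these 4 genes both ileum arrays lay over 4 log2 units above both colon arrays. Apoc3 (3.54 ± 0.25), Tm6sf2, a factor in lipoprotein lipidation (3.20 ± 0.20), and Abcg8, a subunit of the pump that returns plant sterols to the lumen (3.40 ± 0.14), were also called. The fatty acid binding protein Fabp2 read 13.01 and 13.25 in ileum and 7.58 and 8.42 in colon. Its difference of 5.12 ± 0.86 was not called with any one control array left out (4.64 to 5.61). The 2 KO and 1 WT DSS colon arrays, which enter the spread, read 10.68, 7.78 and 7.73 for Fabp2. Apoa1, Apoc3 and Apoa4 form a run of neighbours on chromosome 9, all higher in ileum. Without each control array in turn 14 of the 20 were called throughout, and 15 to 19 in any one setting. The fatty acid receptor Cd36, the lipid droplet protein Plin2 and the lipoprotein receptor Scarb1 did not pass.

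The main route of bile acids through the ileal enterocyte was higher in ileum. Bile acids enter from the lumen through Slc10a2, are carried by the binding protein Fabp6 and leave towards the blood through the heterodimer of Slc51a and Slc51b. Slc10a2 read 11.49 and 11.28 in WT and KO ileum and 5.72 and 5.35 in colon (5.85 ± 0.29). Fabp6 read 12.30 and 12.78 against 5.17 and 5.22 (7.34 ± 0.16), and Slc51a 11.96 and 11.77 against 5.66 and 5.86 (6.10 ± 0.26). Slc51b differed less, with 12.32 and 12.30 in ileum and 8.44 and 7.70 in colon (4.24 ± 0.21). The calls of these genes held without each control array. The bile acid receptor Nr1h4 stood at 1.97 ± 0.18 and its target Nr0b2, a repressor, at 1.51 ± 0.17. Fgf15, the hormone by which the ileum restrains bile acid synthesis in the liver, read 7.89 in WT and 10.26 in KO ileum and 6.09 and 6.18 in colon (2.94 ± 0.54), and was not called without the WT or the KO colon (1.81 to 4.07 over the 4 settings). The efflux pump Abcc2 stood at 3.67 ± 0.35. Of the list of 14 genes 8 were called in ileum (57.1%) and none in colon. Abcc3, Abcb11 and the membrane bile acid receptor Gpbar1 did not pass. For the 4 absorptive lists with no call in colon, limma gave an unadjusted p under 0.05 on the colon side in 0 brush border genes, 3 carriers, 1 fat absorption gene and 1 bile acid gene, and quantile normalization called 2 of the carriers and 1 of the fat absorption genes in colon.

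Promoter letters are shown for 5 of these genes, because they differ by over 32-fold between the tissues and their windows hold letters that transcription factors of the gut are known to read. The windows were taken from RefSeq on GRCm38.p6, are written 5′ to 3′ on the strand of the gene and end 1 base before its start. Capitals mark matches, on either strand, to CAATAAA (read by CDX factors), GTTAATNAT (read by homeodomain factors of liver and gut), CAAAGTCCA (read by HNF4 factors) or AGATAA (read by GATA factors). The windows lie at chr3:72967864-72968013 (Sis, minus strand), chr8:5105288-5105537 (Slc10a2, minus), chr3:122894922-122895071 (Fabp2, plus), chr11:6230246-6230395 (Npc1l1, minus) and chr17:85028197-85028346 (Slc3a1, plus).
Sis: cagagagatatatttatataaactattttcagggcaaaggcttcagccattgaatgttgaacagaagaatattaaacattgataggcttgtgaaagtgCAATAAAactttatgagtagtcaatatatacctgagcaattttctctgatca
Slc10a2: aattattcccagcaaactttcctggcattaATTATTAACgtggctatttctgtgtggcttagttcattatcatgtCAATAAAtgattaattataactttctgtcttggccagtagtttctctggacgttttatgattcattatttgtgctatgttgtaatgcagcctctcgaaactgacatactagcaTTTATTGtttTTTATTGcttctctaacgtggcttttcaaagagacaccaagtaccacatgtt
Fabp2: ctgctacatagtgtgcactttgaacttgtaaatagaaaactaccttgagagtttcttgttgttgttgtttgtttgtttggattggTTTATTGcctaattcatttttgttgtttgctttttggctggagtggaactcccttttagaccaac
Npc1l1: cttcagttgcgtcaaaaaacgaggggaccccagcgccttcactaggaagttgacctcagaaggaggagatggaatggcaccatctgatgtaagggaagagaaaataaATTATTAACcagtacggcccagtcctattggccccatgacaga
Slc3a1: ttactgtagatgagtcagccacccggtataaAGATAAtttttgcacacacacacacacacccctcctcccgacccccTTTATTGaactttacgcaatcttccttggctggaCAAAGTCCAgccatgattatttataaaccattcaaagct
CAATAAA begins 52 bases before the start of Sis, 65 before that of Fabp2 and 73 before that of Slc3a1, and at 175, 62 and 52 bases in Slc10a2. Slc3a1 also holds AGATAA at 119 and CAAAGTCCA at 39 bases, and GTTAATNAT begins at 220 bases in Slc10a2 and at 43 in Npc1l1. The same letters were counted in every window of 250 bases before to 50 after a RefSeq start, 19116 windows of 15563 tested genes. CAAAGTCCA was in 2.78% of the 216 windows of genes over 4-fold higher in ileum, in 2% of the 100 windows of genes over 4-fold higher in colon and in 0.481% of all windows. GTTAATNAT was in 2.78%, 2% and 0.659%, AGATAA in 14.8%, 12% and 9.24%, and CAATAAA in 3.7%, 8% and 3.3%. GGTCANTGA, read by the bile acid receptor, was in 0.463%, 0% and 0.764%. The 2% shares rest on 2 windows each. Over all called genes the shares lay on either side of those of all windows: AGATAA was in 8.86% of ileum and 7.49% of colon windows, CAATAAA in 2.59% and 4.23%, CAAAGTCCA in 1.34% and 0.977%, GTTAATNAT in 1.09% and 1.3%, and GGTCANTGA in 0.669% and 0.977%. The base composition also differed, with a median GC content of 57.7% over all windows, 55.0% for the genes over 4-fold higher in ileum and 52.8% for those over 4-fold higher in colon. A match is a string of letters and not a measured binding site.

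**Figure D2:**
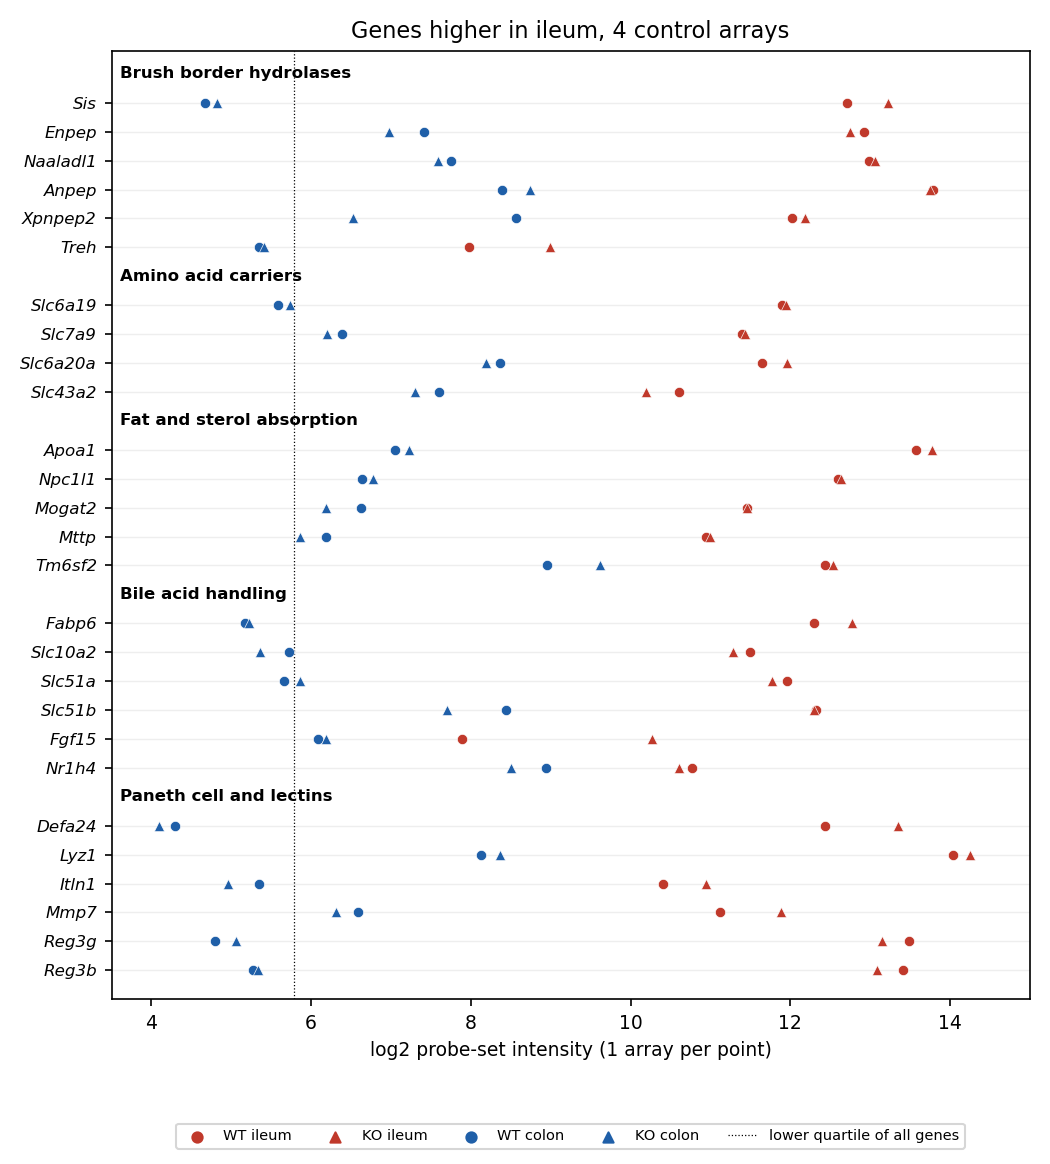
Log2 probe-set intensity (x axis) of genes of absorption, bile acid handling and Paneth cells on the 4 control arrays, with WT as circles, KO as triangles, ileum red and colon blue; the dotted line is the lower quartile of all genes (5.78). All genes drawn were called higher in ileum, and Fgf15 shows the widest gap between the WT (7.89) and KO (10.26) ileum.

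Vitamin, mineral and iron genes leaned to ileum but held exceptions. Of 33 measured members 16 were called in ileum (48.5% against 5.94% of all genes) and 3 in colon (9.09% against 3.22%), with a median of 0.74. Cubn, the large receptor that takes up vitamin B12 bound to intrinsic factor, read 11.90 and 12.01 in ileum and 5.12 and 5.10 in colon (6.85 ± 0.13), and Amn, the small protein that anchors it in the membrane, 8.55 and 8.96 against 6.90 and 6.91 (1.85 ± 0.15). The sulfate carrier Slc13a1 stood at 7.17 ± 0.57, and the phosphate carrier Slc34a2 at 3.70 ± 0.36. The vitamin A genes Isx, a homeobox repressor of carotenoid uptake (4.76 ± 0.34), and Lrat, which stores retinol as esters (2.87 ± 0.30), were higher in ileum. Another phosphate carrier, Slc20a1, went the other way, with 12.66 and 11.92 in colon and 8.69 and 9.20 in ileum (-3.35 ± 0.30). The calcium channel Trpv6 (-1.30 ± 0.22) and the folate carrier Slc46a1 (-1.21 ± 0.28) were also called in colon, each losing its call without at least 3 of the 4 control arrays in turn. In ileum 6 of the 16 were called without each array in turn. Lrat lost its call without the KO colon, Rdh7 without the KO ileum or either colon, and Aldh1a1 with any one control array left out.

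Paneth cell products were high in ileum, and 1 secreted pentraxin was high in colon. Of 20 measured genes for Paneth products and antimicrobial lectins 11 were called in ileum (55% against 5.94% of all genes). In colon 1 was called (5% against 3.22%), and the median was 1.45. With any one control array left out, 7 to 11 were called in ileum, and 7 of the 11 calls held throughout, those of Pla2g2a, Wnt3, Reg3b and Reg3g being lost in some. The alpha-defensin Defa24 read 12.44 and 13.34 in WT and KO ileum and 4.29 and 4.10 in colon (8.70 ± 0.26), and Defa39 11.14 and 12.46 against 5.27 and 5.48 (6.42 ± 0.34). Alpha-defensins are close copies of one another, so probe sets may share signal between them. Lysozyme (Lyz1) read 14.04 and 14.26 against 8.13 and 8.37 (5.90 ± 0.11), intelectin (Itln1) stood at 5.53 ± 0.21 and Mmp7, which activates defensins, at 5.06 ± 0.46. The bacteria-binding lectin Reg3g read 13.49 and 13.15 in ileum and 4.80 and 5.06 in control colon, and Reg3b 13.42 and 13.08 against 5.28 and 5.34. The DSS colon arrays, which enter the estimate of spread, read 12.75, 8.95 and 8.13 for Reg3g and 12.85, 8.73 and 8.26 for Reg3b. The standard errors were 1.27 and 1.33, and neither gene was called with any one control array left out, where the differences ran from 7.38 to 9.39 and from 7.04 to 8.85. Reg3a stood at 4.50 ± 0.17. Mptx1, a mucosal pentraxin, read 12.68 and 11.72 in colon and 7.45 and 6.64 in ileum (-5.16 ± 0.51). Ang4, a ribonuclease of Paneth and goblet cells, read 7.73 in WT and 9.77 in KO ileum and 7.30 and 6.50 in colon and did not pass, nor did Lyz2 and Reg4.

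Signals to immune cells differed with the tissue in few genes. Ccl25, the chemokine that draws T cells into the small intestine, read 11.91 and 12.15 in ileum and 6.33 and 6.59 in colon (5.57 ± 0.10), and its receptor Ccr9 7.37 and 8.24 against 5.57 and 5.60 (2.22 ± 0.26). Another Ccl25 probe set differed far less, with 7.85 and 8.11 in ileum and 7.52 and 7.02 in colon (0.71). Inducible nitric oxide synthase (Nos2) read 11.19 in WT and 9.97 in KO ileum and 5.90 and 6.02 in colon (4.62 ± 0.40). In colon the cytokine Il18 (-1.91 ± 0.16), the receptor for bacterial lipopolysaccharide Tlr4 (-1.54 ± 0.22) and the oxidase Nox1 (-1.29 ± 0.27) were higher, the last 2 not with any one control array left out. Il1rn, the antagonist of interleukin 1, read 10.61 and 10.25 in colon and 7.77 and 7.37 in ileum (-2.86 ± 0.12). In the list of 29 genes for the epithelial response to microbes 3 were called each way, with a median of -0.22. This is 10.3% each way, against 5.94% of all genes in ileum and 3.22% in colon. The counts moved when single control arrays were left out.

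T and natural killer cell genes were higher in ileum, with 12 of 28 called (42.9%), none in colon, also at an unadjusted p under 0.05 in limma, and a median of 0.58. The cytotoxic granule genes Gzmb (8.76 and 9.09 in ileum, 6.20 and 5.95 in colon, 2.85 ± 0.17) and Gzma (2.18 ± 0.21), the surface protein Cd7 (2.33 ± 0.21), the granule protein Nkg7 (1.98 ± 0.20) and the T cell receptor chain Cd3e (1.58 ± 0.15) were called without each control array. Cd3g, another chain of the same receptor (2.55 ± 0.35), and Ccr9 were not called without the KO colon, and the chemokine Ccl5 (2.74 ± 0.34) not without the KO ileum or the WT colon. Cd4, Cd8b1 and Klrd1 did not pass. Macrophage and MHC class II genes were also on the ileum side, 10 of 22 (45.5% against 5.94% of all genes) against 1 in colon (4.55% against 3.22%). H2-DMa, which loads peptides onto class II molecules, stood at 2.31 ± 0.23 and H2-Eb1, a class II chain, at 1.27 ± 0.15. Only these 2 of the 10 were called without each control array, the counts ranging from 2 to 11. H2-Ob, which restrains loading, was higher in colon (-1.10 ± 0.22), not with any one control array left out. Of the 22 genes of the B cell list 3 were called in ileum (13.6% against 5.94% of all genes) and 1 in colon (4.55% against 3.22%). Those in ileum included the plasma cell receptor Tnfrsf17 (1.24 ± 0.12) and the chain that joins immunoglobulin A, Jchain (1.09 ± 0.17). The follicle gene Fcer2a was higher in colon (-1.58 ± 0.19), and Ms4a1, Cr2 and Cxcl13 had colon values of 6.88 and 7.96, 5.84 and 7.04, and 9.49 and 10.35 in WT and KO against ileum values of 5.79 and 6.47, 5.12 and 5.43, and 7.49 and 9.48, without passing. Jchain was not called without the WT ileum or either colon, and 1 or 2 ileum calls were left with any one control array left out. In place of 1 B cell gene, 9 were called in colon with only the 4 control arrays in the fit and paired by genotype, and 3 without the pairing.

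**Figure D3:**
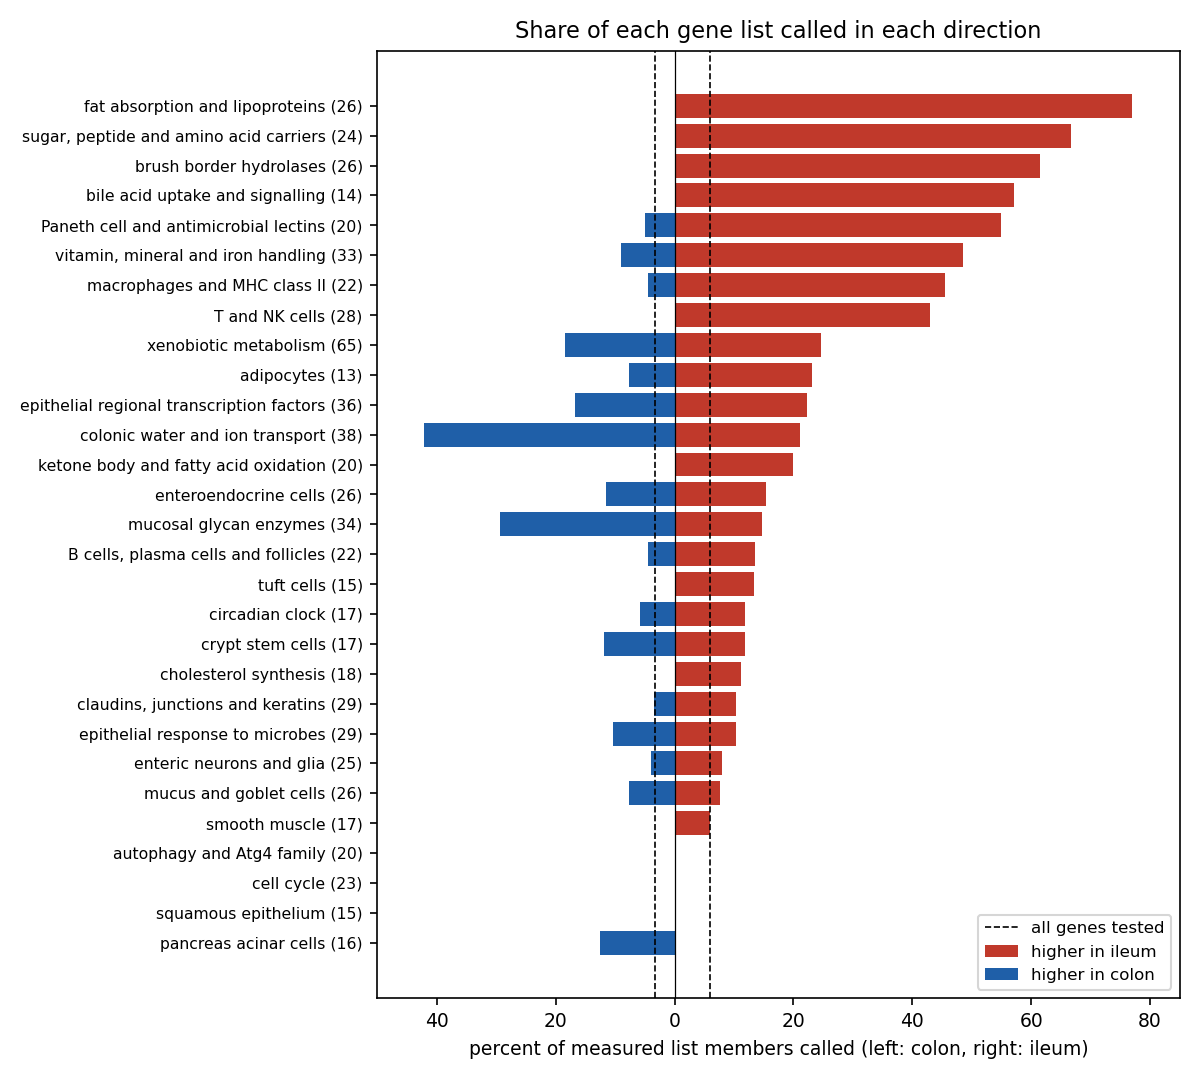
Percent of the measured members of each gene list called higher in ileum (red, to the right) or higher in colon (blue, to the left), with the number of measured members in brackets; dashed lines mark the shares over all genes tested (5.94% and 3.22%). The fat absorption list reaches 76.9% in ileum, and the colonic water and ion transport list 42.1% in colon.

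In colon the 20 largest differences were those of Ly6g, Tgm3, Aqp8, Car1, Car2, Sycn, Hoxb13, Nxpe2, Sval1, B3galt5, Hao2, Atp12a, Mptx1, Thbs4, Slc37a2, Insl5, Casp14, Best2, Cyp2d12 and Ggh, and 17 of them were called without each control array. Atp12a and Casp14 were not called with any one control array left out, and Hao2 not without the KO colon (-6.37 to -4.23 over the 4 settings). The 2 KO and 1 WT DSS colon arrays, which enter the spread, read 8.48, 11.28 and 11.30 for Atp12a. For Casp14 they read 5.55, 8.51 and 7.9. For 5 of the 20 both ileum arrays read below the lower quartile of that array (5.78 in WT, 5.71 in KO ileum). Ly6g, a surface protein best known from granulocytes, read 12.50 and 12.48 in WT and KO colon and 5.11 and 4.95 in ileum (-7.46 ± 0.15). The granulocyte genes S100a8 and S100a9, picked after their values were seen, read 5.63 to 5.88 and 6.01 to 6.96 on the 4 control arrays. Which cells gave the Ly6g signal was not tested. Tgm3, a transglutaminase that crosslinks proteins, read 12.94 and 12.78 in colon and 5.86 and 5.91 in ileum (-6.97 ± 0.58). Sycn, a protein of secretory granules known from the pancreas, read 13.91 and 13.97 in colon and 7.96 and 8.62 in ileum (-5.65 ± 0.20), and the elastase Cela1 10.32 and 10.27 against 6.79 and 6.90 (-3.45 ± 0.12). The other 14 measured genes of the acinar list were not called, among them the colipase gene Clps, which read 11.33 and 12.50 in ileum and 10.94 and 10.69 in colon. Thbs4, a matrix glycoprotein (-4.89 ± 0.20), Slc37a2, a sugar phosphate exchanger (-4.71 ± 0.39), and Ggh, a hydrolase that trims folate polyglutamates (-4.29 ± 0.27), were likewise called in colon. Colon windows of 3 of these genes, with the same marking, lie at chr15:75155111-75155260 (Ly6g, plus, 1 of its 2 listed starts), chr7:28540735-28540884 (Sycn, plus) and chr4:103026729-103026878 (Insl5, minus, 1 of its 2 listed starts).
Ly6g: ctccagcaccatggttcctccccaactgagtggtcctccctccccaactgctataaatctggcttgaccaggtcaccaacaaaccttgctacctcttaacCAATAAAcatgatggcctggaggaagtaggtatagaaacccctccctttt
Sycn: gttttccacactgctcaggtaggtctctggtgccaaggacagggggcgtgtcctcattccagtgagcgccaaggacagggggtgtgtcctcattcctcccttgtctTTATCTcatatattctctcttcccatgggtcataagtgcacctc
Insl5: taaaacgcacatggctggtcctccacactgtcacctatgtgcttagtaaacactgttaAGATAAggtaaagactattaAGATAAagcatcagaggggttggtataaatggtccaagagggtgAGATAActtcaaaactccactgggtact
The Insl5 window shown holds AGATAA 3 times, from 92, 72 and 28 bases before the start. Sycn holds it once in the bases shown, from 44, and the Ly6g window shown holds CAATAAA from 50 bases. In the 250 bases before the other listed Insl5 start there was no match. Before the other Ly6g start CAATAAA lay from 118 bases.

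Water and ion transport was the list with the most calls in colon, 16 of 38 (42.1% against 3.22% of all genes), with 8 in ileum and a median of -0.39. Several gene families held members higher in either tissue. Among water channels, Aqp8 read 12.05 and 11.83 in colon and 6.16 and 5.75 in ileum (-5.99 ± 0.17) and Aqp4 stood at -2.53 ± 0.17, while Aqp7, which also carries glycerol, read 10.39 and 10.61 in ileum and 7.08 and 6.12 in colon (3.90 ± 0.28) and Aqp11 stood at 1.35 ± 0.23. Among carbonic anhydrases, which interconvert carbon dioxide and bicarbonate, Car2 read 12.25 and 12.42 in colon and 6.72 and 6.43 in ileum (-5.76 ± 0.25). Car1 read 13.60 and 13.39 in colon but 8.88 in WT and 6.55 in KO ileum (-5.78 ± 0.58), and Car12 (2.16 ± 0.45) and Car13 (1.21 ± 0.12) were higher in ileum. Among anion exchangers, Slc26a3, which trades luminal chloride for bicarbonate, was higher in colon (12.68 and 12.75 against 10.60 and 10.28, -2.27 ± 0.18). Its relative Slc26a6, which also carries oxalate, was higher in ileum (10.52 and 10.55 against 6.15 and 6.19, 4.37 ± 0.12).

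Channels and pumps of the colon followed. The bicarbonate channel Best2 read 9.96 and 9.76 in colon and 5.22 and 5.60 in ileum (-4.45 ± 0.27), the chloride channel Ano1, also a marker of pacemaker cells, 11.24 and 10.99 against 8.27 and 8.10 (-2.92 ± 0.13), and the proton-potassium pump Atp12a 10.76 and 11.21 against 5.98 and 5.57 (-5.21 ± 0.88). Slc16a1, a carrier of short-chain fatty acids and lactate, stood at -1.64 ± 0.14. Of the 3 subunits of the epithelial sodium channel, Scnn1a (-2.20 ± 0.18) and Scnn1b (-1.88 ± 0.19) were higher in colon, and Scnn1g read 7.15 and 7.58 in colon and 6.23 and 6.17 in ileum without passing. Hsd11b2, which keeps glucocorticoids from the aldosterone receptor, stood at -2.13 ± 0.24. In ileum Guca2b, the peptide uroguanylin that drives salt secretion, read 13.07 and 13.34 against 10.17 and 10.50 (2.87 ± 0.41). The kinase Sgk1 (1.22 ± 0.12) and the scaffold Slc9a3r1 (1.50 ± 0.10) were also called there, but the sodium-proton exchanger Slc9a3 did not pass. Without each control array 12 of the 16 colon and 5 of the 8 ileum calls held throughout, Guca2b being lost without the KO ileum or either colon, Aqp11 without either ileum or the KO colon, and Car12 and Atp12a with any one array left out.

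**Figure D4:**
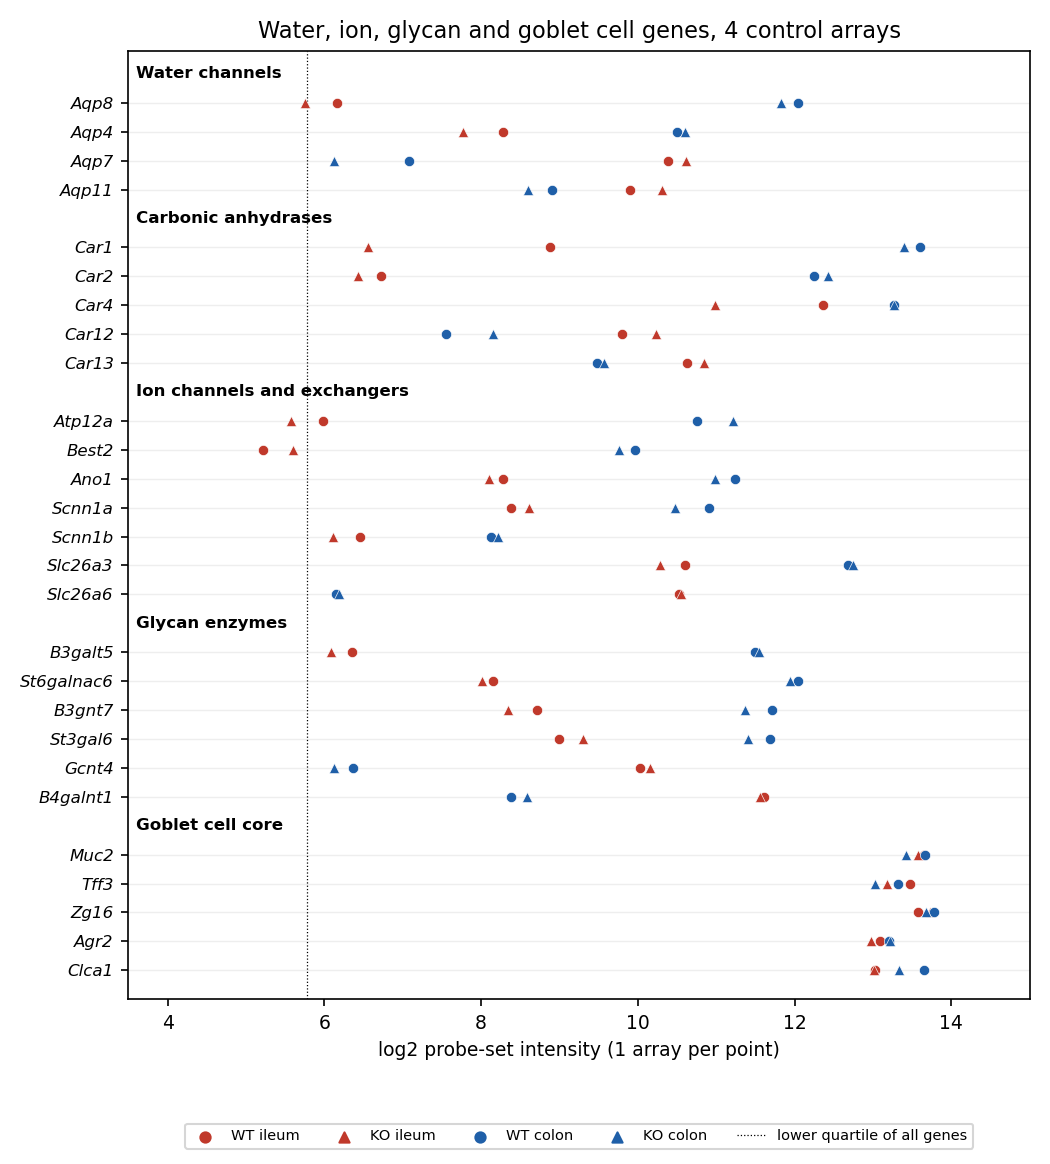
Log2 probe-set intensity (x axis) of water and ion transport genes, glycan enzymes and core goblet cell genes on the 4 control arrays, with WT as circles, KO as triangles, ileum red and colon blue; the dotted line is the lower quartile of all genes (5.78). Aqp8, Car1, Car2 and B3galt5 lie far to the right in colon, Slc26a6 and Gcnt4 in ileum, and the goblet cell genes all lie between 12.98 and 13.78.

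Core goblet cell genes, chosen after their values were seen, read alike in both tissues, while several enzymes that build mucosal sugar chains did not. The mucin Muc2 read 13.64 and 13.57 in ileum and 13.66 and 13.42 in colon, a difference of 0.07 ± 0.18, and the trefoil peptide Tff3 (0.15 ± 0.14), the lectin Zg16 (-0.08 ± 0.12) and the disulfide isomerase Agr2 (-0.18 ± 0.12) lay as near to 0. The full list of 26 goblet cell genes had a median of -0.24, with 17 values below 0. At an unadjusted p under 0.05 in limma it had 7 genes in colon and 2 in ileum. Fitted to the 4 control arrays paired by genotype, 6 were called in colon. Bcas1 (-0.93) and Ern2 (-0.88) did not pass in the main fit, where 2 genes of the list were called each way (7.69%, against 5.94% of all genes in ileum and 3.22% in colon). In ileum these were Clca4b, which read 12.59 and 12.66 against 7.01 and 8.28 (4.98 ± 0.56), and Clca4a (1.87 ± 0.22), relatives of chloride channel regulators, and in colon the secretory factor Creb3l1 (-1.78 ± 0.12) and the membrane mucin Muc1 (-1.86 ± 0.26). Clca4a was not called without the WT colon and Muc1 not without the WT ileum. Of 34 glycan enzymes 10 were called in colon (29.4% against 3.22% of all genes) and 5 in ileum (14.7% against 5.94%). B3galt5, which adds galactose to form type 1 chains, read 11.50 and 11.55 in colon and 6.35 and 6.08 in ileum (-5.30 ± 0.12). The sialyltransferase St6galnac6 read 12.04 and 11.95 against 8.16 and 8.01 (-3.91 ± 0.12). Fut9, a fucosyltransferase (-3.71 ± 0.43), B3gnt7, which extends keratan sulfate chains (-3.01 ± 0.34), and the sialyltransferase St3gal6 (-2.40 ± 0.18) were also higher in colon. Ileum instead had Gcnt4, a branching enzyme of O-glycans (10.02 and 10.15 against 6.37 and 6.13, 3.84 ± 0.15), and B4galnt1, which makes complex gangliosides (3.10 ± 0.38). Only 4 of the 10 colon calls and 1 of the 5 ileum calls, that of Gcnt4, held without each control array. Fut9 was lost without the WT colon, B3gnt7 without the KO colon and B4galnt1 without either colon.

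Hormones of enteroendocrine cells were divided. Insl5, a peptide of L cells of the hindgut, read 11.77 and 12.14 in colon and 7.08 and 7.48 in ileum (-4.67 ± 0.47), and neurotensin (Nts) 8.51 and 9.10 in ileum and 4.51 and 4.74 in colon (4.17 ± 0.16). Secretin (Sct, 1.40 ± 0.18), proglucagon (Gcg, 1.16 ± 0.20) and cholecystokinin (Cck, 0.85 ± 0.15) were higher in ileum, and the granins Chga (-0.72 ± 0.14) and Chgb (-0.68 ± 0.12) in colon. Of the 26 genes of this list 4 were called in ileum (15.4% against 5.94% of all genes) and 3 in colon (11.5% against 3.22%). Of these 7, Insl5, Nts and Sct were called without each control array. Pyy, which slows gut transit, averaged 10.42 in colon and 9.21 in ileum but did not pass (-1.22 ± 0.31), nor did somatostatin (Sst) and Pcsk1. Gcg lost its call without either ileum or the WT colon, Cck without the KO ileum or the KO colon, and both granins with any one control array left out. Of 17 crypt stem cell genes 2 were called in each tissue (11.8%, against 5.94% of all genes in ileum and 3.22% in colon). Those in colon, Lgr4 (-0.62 ± 0.14) and Lrig1 (-0.75 ± 0.16), were lost with any one control array left out, while those in ileum held. Olfm4, a secreted glycoprotein of small intestinal crypt base cells, read 11.52 and 12.21 in ileum and 5.61 and 5.90 in colon (6.11 ± 0.13), and the Wnt target Axin2 stood at 1.21 ± 0.14. The stem cell receptor Lgr5 read 9.19 and 9.76 in ileum and 8.76 and 7.76 in colon and did not pass. No gene of the cell cycle list passed in limma, 8 of its 23 members had an unadjusted p under 0.05 on the ileum side, 22 had values above 0 and the median was 0.42. With only the 4 control arrays in the fit, 4 of them were called in ileum when paired by genotype and 2 without the pairing.

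Transcription factors that pattern the gut were among the called genes. In the list of 36 regional epithelial factors 8 were called in ileum (22.2% against 5.94% of all genes) and 6 in colon (16.7% against 3.22%). The median was -0.03. Osr2 read 11.07 and 10.70 in ileum and 6.21 and 6.35 in colon (4.61 ± 0.17), Gata5 11.19 and 11.27 against 6.44 and 7.04 (4.49 ± 0.16), Tbx3 11.24 and 11.57 against 8.23 and 8.27 (3.16 ± 0.13) and Hnf4g 11.76 and 11.81 against 9.33 and 9.36 (2.44 ± 0.15). Ppara, the receptor for fatty acids, stood at 1.45 ± 0.16. These 5 were called without each control array. Cdx2, the homeobox factor of intestinal identity, read 10.96 and 10.72 in ileum and 9.47 and 9.28 in colon (1.47 ± 0.30), and its relative Cdx1 9.52 and 9.26 against 9.84 and 9.80 without passing. Cdx2 was not called with any one control array left out. The 2 KO and 1 WT DSS colon arrays, which enter the spread, read 10.56, 9.74 and 9.66 for it. On the colon side stood Foxd2 (-1.81 ± 0.24), Foxa2 (-1.35 ± 0.20), Pparg (-1.01 ± 0.18), Foxa1 (-0.84 ± 0.10), Esrrg (-0.75 ± 0.16) and Klf4 (-0.58 ± 0.14), and none of these 6 was called without each control array.

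Hox genes, which record position along the body axis in the order of their clusters, separated the tissues by cluster and by position within it. Of 37 measured, 6 were called in ileum and 13 in colon. Over all genes the shares were 5.94% in ileum and 3.22% in colon. In the Hoxa cluster 8 of 10 were higher in colon and none in ileum. Hoxa13, the last of the cluster, read 9.68 and 9.62 in WT and KO colon and 5.87 and 6.28 in ileum (-3.58 ± 0.15). Hoxa9 (-2.42 ± 0.27), Hoxa6 (-2.18 ± 0.14), Hoxa7 (-2.01 ± 0.22) and Hoxa10 (-1.45 ± 0.16) followed, and with Hoxa5 (-1.69 ± 0.21) they form an unbroken run of neighbours on chromosome 6. In the Hoxd cluster only the last members were called, all in colon. Hoxd13 read 10.31 and 9.88 in colon and 6.27 and 6.29 in ileum (-3.82 ± 0.58), Hoxd10 9.63 and 8.86 against 6.12 and 6.04 (-3.16 ± 0.33) and Hoxd11 9.71 and 8.87 against 6.61 and 6.19 (-2.89 ± 0.28). Hoxd12 (-0.79 ± 0.13) and the adjoining Evx2 (-0.63 ± 0.11) were called with small differences, and Hoxd1, Hoxd3, Hoxd4, Hoxd8 and Hoxd9 were not called.

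The Hoxb and Hoxc clusters leaned to ileum in their middle members. Hoxc8 read 9.47 and 10.13 in WT and KO ileum and 6.17 and 5.91 in colon (3.76 ± 0.23), Hoxc6 7.00 and 7.21 against 5.02 and 5.08 (2.06 ± 0.12) and Hoxc5 stood at 0.89 ± 0.14, again a run of neighbours. Hoxb5 read 9.86 in WT and 8.47 in KO ileum and 7.16 and 6.96 in colon (2.10 ± 0.44), Hoxb6 9.29 and 7.74 against 6.61 and 6.66 (1.88 ± 0.36) and Hoxb4 8.32 and 7.48 against 6.67 and 6.28 (1.43 ± 0.29). All 3 were higher in the WT than in the KO ileum array. Hoxb13, the last of the same cluster, was the opposite, with 11.13 and 11.07 in colon and 5.55 and 5.40 in ileum (-5.63 ± 0.58). A pair of noncoding genes of the Hoxa cluster lay on the colon side with it. The long RNA Hottip, beside Hoxa13, read 8.70 and 8.58 in colon and 5.72 and 5.41 in ileum (-3.07 ± 0.23), and the microRNA gene Mir196b 6.32 and 6.70 against 5.76 and 5.31 (-0.97 ± 0.20). The array reads the gene of a microRNA and not its mature arms, which RefSeq gives as follows on GRCm38.p6, with the seed (bases 2 to 8) in capitals.
mmu-miR-196b-5p: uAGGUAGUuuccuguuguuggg
mmu-miR-196b-3p: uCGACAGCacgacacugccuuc
Without each control array in turn 8 of the 13 colon calls held throughout, Hoxa13, Hoxb13, Hoxd10 and Hoxd11 among them, and 2 of the 6 ileum calls, those of Hoxc6 and Hoxc8. Hoxd13 was not called without the WT ileum or either colon (-4.40 to -3.23), Hoxa5 not without the KO ileum, Hoxb5 not without the WT ileum or either colon, and Hoxd12, Evx2 and Hoxa2 not with any one control array left out. Hoxb4 and Hoxc5 were not called without the WT ileum or either colon, Hoxb6 not without either colon, Hoxa3 not without either ileum or the WT colon, and Mir196b not without the KO ileum or either colon.

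**Figure D5:**
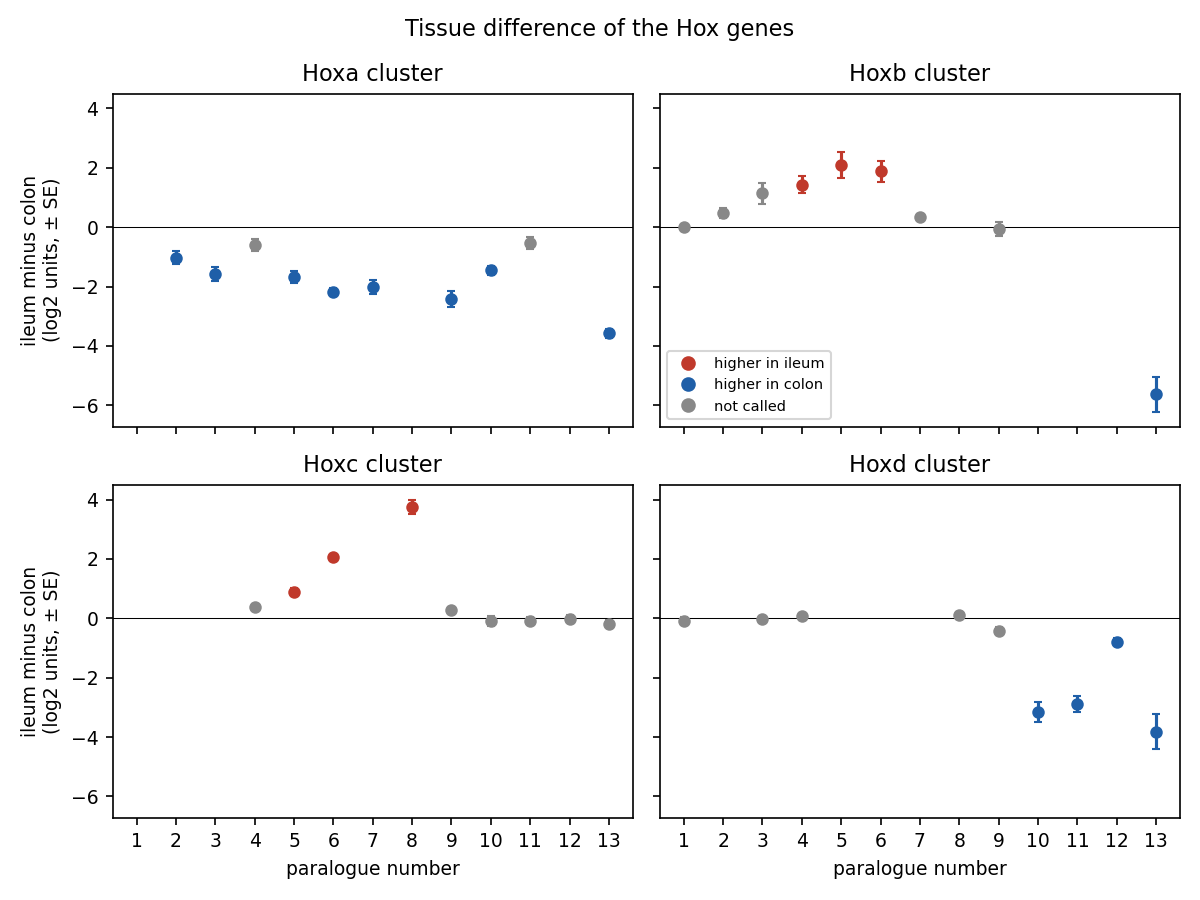
Ileum minus colon difference in log2 units, with its standard error, of the measured genes of the 4 Hox clusters (y axis), ordered by paralogue number (x axis). Hoxa genes lie below 0 throughout, and the Hoxd genes that were called, all below 0, are those from paralogue 10 on. The values above 0 that were called belong to Hoxb4, Hoxb5, Hoxb6, Hoxc5, Hoxc6 and Hoxc8.

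Enzymes that process foreign compounds were called in both directions. Of 65, 16 were called in ileum (24.6% against 5.94% of all genes) and 12 in colon (18.5% against 3.22%), with a median of 0.07. In ileum the cytochromes Cyp3a25 (4.45 ± 0.23) and Cyp4f14 (3.09 ± 0.44), the glucuronosyltransferase Ugt2b36 (2.52 ± 0.23), the esterase Ces2e (2.58 ± 0.23) and the efflux pump Abcg2 (2.04 ± 0.20) were higher. In colon Cyp2d12 read 8.93 and 9.27 against 4.99 and 4.56 in ileum (-4.33 ± 0.28), Cyp2d34 10.08 and 9.91 against 6.06 and 5.42 (-4.25 ± 0.20) and Cyp2f2 10.90 and 10.23 against 6.50 and 6.45 (-4.09 ± 0.21). The sulfotransferase Sult1a1 (-3.75 ± 0.18), the alcohol dehydrogenase Adh1 (-3.12 ± 0.22) and the esterase Ces2g (-1.91 ± 0.17) joined them. Close relatives thus sat on opposite sides, Ces2e with Ces2g, Sult2b1 (1.77 ± 0.16) with Sult1a1, and Cyp2d26 (2.83 ± 0.31) with the 4 Cyp2d genes of a run on chromosome 15. All 7 measured Gstm genes, which conjugate glutathione, were higher in colon, from Gstm5 (-0.79 ± 0.16) to Gstm6 (-2.07 ± 0.26). The Gstm and Cyp2d genes are neighbouring near-copies whose probes may share signal, so single members are uncertain. Only 7 of the 16 ileum and 6 of the 12 colon calls held without each control array, and Cyp4f14, Gstm1 and Gstm4 were lost with any one of them left out. Of the Gstm genes, Gstm3 and Gstm5 were each lost in 3 of these 4 settings and Gstm6 without either colon, so that Gstm2 and Gstm7 alone kept their call. Cyp2d26 was lost without the KO colon.

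Called genes also lay side by side on the chromosomes, in 28 runs of 3 or more neighbouring protein-coding genes, 20 in ileum and 8 in colon. The longest was the Gstm run of 7 on chromosome 3. Among the ileum runs of 4 were Irf1, Slc22a5, Slc22a21 and Slc22a4 on chromosome 11, with the ergothioneine and carnitine carriers Slc22a4 (2.35 ± 0.12) and Slc22a5 (1.31 ± 0.16), and H2-DMa, Psmb9, Tap1 and Psmb8 on chromosome 17, which serve peptide loading for MHC molecules. Tap1, the peptide pump, read 9.37 and 9.51 in ileum and 8.02 and 8.16 in colon (1.35 ± 0.15). A colon run of 4 held the calcium-binding S100a1 (-1.25 ± 0.14), S100a13, S100a14 (-2.82 ± 0.34) and S100a16 on chromosome 3. Of these, Irf1, Psmb8, Psmb9, S100a13 and S100a16 were not called with any one control array left out, Slc22a5 not without the KO ileum, Slc22a21 not without either ileum or the KO colon, S100a1 not without the KO colon and S100a14 not without either colon. The list for autophagy, the pathway of the deleted gene, had no call in either direction among 20 members in limma, and at an unadjusted p under 0.05 it had 5 in ileum and 1 in colon, with Atg10 (-0.66 ± 0.18), Atg5 (0.45 ± 0.15) and Atg4c (0.43 ± 0.15) farthest from 0.

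The tissue difference was then compared between the genotypes, each of which has 1 ileum and 1 colon array. No gene passed at an adjusted p under 0.05 for a tissue difference that depends on the genotype in limma, 638 of 19938 genes had an unadjusted p under 0.05 and the smallest adjusted p was 0.676. With a variance trend and a robust prior, 3 genes passed. Among the 1184 genes called in ileum the difference was larger in KO for 870, and among the 642 called in colon for 211. The ileum minus colon value was the higher one in KO for 73.5% of the genes called in ileum, 67.1% of those called in colon and 56.1% of all genes, with a median shift of 0.05 over all genes, and the upper quartile of the KO colon array was 8.70 against 8.90 in WT colon. The part of this shift in the counts was not tested. The 5 widest gaps, among genes above the median level, were those of Slc6a14, Car3, Saa1, Ang4 and Adgrf1. Slc6a14 was low in the KO ileum only (5.67), as was the acute-phase gene Saa1, which read 4.11 there and 7.55 in WT ileum against 8.64 and 8.55 in colon. Car3, a carbonic anhydrase of fat and muscle, was low in the KO colon only (7.23, against 11.25 in WT colon and 12.28 and 11.78 in ileum), on the same array as the lowest adipocyte markers. The receptor Adgrf1 was high in the WT colon only (9.47, against 5.78 to 6.73 on the other 3). None of the 5 was called for the tissue.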

How the data were processed

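RNA of ileum and colon was purified with RNeasy and labelled with biotin for Affymetrix sense-target arrays, as the labels' protocols state. The authors deposited 1 linear intensity per probe set and array; their summarisation and normalization were not given in the sources used here. Values were used as deposited, with array medians of 121.4 to 126.45, and log2 values were computed here from the authors' intensities. Of 35512 probe sets, 21789 name 1 gene, 1621 several and 12102 none; the probe set with the highest mean stood for each of 19938 genes. All 7 arrays were fitted in limma 3.58.1 (R 4.3.3) with tissue, DSS and genotype as terms, and p-values were adjusted by Benjamini-Hochberg over all genes. The step was tested on simulated data. Each tissue and genotype has 1 control array, which limits precision.

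Named genes are the 20 largest called differences each way, up to 8 called members each way and 3 uncalled members per list, opposed family members, the 5 widest genotype gaps, and members of long runs. Hoxa13, the other Hox genes, Hottip, Mir196b, Apoa4, Hsd11b2, Scnn1a, Scnn1b, S100a8, S100a9, Alb, Ttr, Hmcn1, Pla2g2a, Wnt3 and the core goblet cell genes fall outside that rule and were chosen after their values were seen, as were the promoters shown. Members and lists were chosen with earlier results of these data known. Promoters come from RefSeq tables, and figures were drawn with matplotlib 3.10.9. Alternatives covered scaling, dim genes, probe sets, the variance prior, the arrays fitted and labelled sex.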

Additional observations from a re-analysis of the deposited data

How the results depend on the processing

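The counts moved more with the arrays and groups fitted than with the scaling. Fitted to the 4 control arrays paired by genotype, the counts were 1605 in ileum and 990 in colon, and 1266 and 798 without the pairing. A separate mean for each of the 6 groups gave 506 and 258. Leaving out 1 array at a time gave 384 to 1509 genes in ileum and 236 to 909 in colon; the upper ends come from leaving out the first KO DSS array, and the lower ends from leaving out the KO and the WT colon. Quantile normalization gave 1074 and 928, centring each array on its median 1138 and 759, leaving out dim genes 1213 and 665, averaging probe sets 1191 and 648, testing every probe set 1226 and 752 probe sets, and a variance trend with a robust prior 1242 and 705. Labelled sex as a covariate, which the sex markers go against, gave 1049 and 587. Leaving out the WT DSS array gave the same counts, so the covariate is not a separate check for sex. For a tissue difference that depends on genotype, the variance trend with a robust prior gave 3 genes, and quantile normalization or leaving out dim genes 0. With every probe set tested, Hmcn1, called in colon at -2.43, had 4 probe sets called in ileum; no other called gene was called the opposite way under any of these settings. No pairing by replicate block was possible because the labels give the compared tissues no replicate numbers, and genotype stands in for it above. The cause of these shifts was not tested. In 83 genes called in ileum and 51 called in colon, both control arrays of the lower tissue read under the lower quartile of that array. The difference of these genes may be understated.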

Other observations

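A few gene groups showed a tissue difference in single members. Of 17 clock genes 2 were called in ileum (11.8% against 5.94% of all genes) and 1 in colon (5.88% against 3.22%). The repressor Cry1 (1.25) and the factor Nfil3 (1.45) were higher in ileum and Per3 (-1.10) in colon. Cry1 alone was called without each control array. Of 25 neuron, glia and interstitial cell genes 2 were called in ileum (8% against 5.94% of all genes) and 1 in colon (4% against 3.22%). The endothelin Edn3 (2.52) and its receptor Ednrb (1.29) were higher in ileum. Edn3 was not called with any one control array left out and Ednrb not without the KO ileum or the KO colon. Ano1 (-2.92) was higher in colon, and its call held without each control array. The junction protein Cldn8 was higher in colon at -2.75 and was not called without the KO colon. Of 69 called genes with more than 1 probe set, 59 had all their probe sets on 1 side.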
